A study of Mus musculus with 18 samples.

Results

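The mitochondrial ribosomal proteins are the nuclear-encoded proteins of the ribosome that works inside mitochondria, and their genes carry the symbols Mrpl, for the large subunit, and Mrps, for the small subunit. Members were taken by symbol alone, as every row of the gene table whose symbol was Mrpl or Mrps followed by a number and at most 1 letter. The rule gave 78 members among the 54347 rows of the table, 49 Mrpl and 29 Mrps, and all 78 were among the 18728 genes that passed the filter on low counts.

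RNA-seq was performed on 3 fat depots of wild type mice (wt) and of mice with a deletion in the long non-coding RNA gene Gm15551 (ko, ∆Gm15551). The depots were the brown fat between the shoulder blades (interscapular, iBAT), the white fat under the skin of the groin (inguinal, iWAT) and the white fat beside the epididymis (epididymal, eWAT). Each of the 6 groups held 3 libraries, 1 per mouse, so that 6 mice gave 18 libraries and each mouse gave all 3 tissues. All mice were 12 weeks old and of the strain C57BL/6N. By the methods they were fed chow, whereas the authors' results describe fat transcriptomes of animals on a high-fat or a control diet. The 6 groups hold no split by diet. The ko allele was a constitutive CRISPR/Cas9 deletion that includes the first exon, so it was not restricted to adipocytes.

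Library totals ranged from 14997901 to 34389586 estimated counts. Gm15551 had 40 to 316 counts in the wt libraries and 0 to 4 in the ko libraries, as labelled. Brown adipocyte markers summed to between 7330 and 12828 CPM (counts-per-million) in iBAT. The same sum lay between 27.7 and 325 CPM in iWAT, and between 7.82 and 22.95 CPM in eWAT. The mitochondrial genome gave 22.9 to 26.99% of the iBAT counts, and 3.77 to 9.64% of the counts of the white libraries. Markers of another tissue stood out in 4 libraries: iWAT wt 3 and iWAT ko 2 had 974 and 408 CPM of lymph node markers, iWAT ko 1 had 5048 CPM of skeletal muscle markers, and eWAT ko 3 had 4823 CPM of epididymis markers and 115 CPM of testis markers. Each comparison below was also run without these 4 libraries. P-values measure the spread between libraries, and the main fits held no term for the mouse that gave each library.

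Mitochondria keep a small genome of their own, whose messages all encode subunits of the respiratory chain or ATP synthase. These messages are translated by the mitochondrial ribosome, which pairs ribosomal RNAs made in the mitochondrion with proteins made in the cytosol and imported. Brown adipocytes are known for their dense mitochondria, which burn substrate to produce heat, whereas white adipocytes mainly store lipid and hold fewer mitochondria. In whole tissue, a difference in the share of a cell type and a difference in the RNA of each cell cannot be told apart.

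The members were spread over 17 chromosomes, with 11 of the 78 on chromosome 11 and 8 on chromosome 17. Of the members, 19 (24.4%) had another protein-coding gene starting head to head within 1 kb, against 9.68% of all protein-coding genes tested. Promoter sequences were available in the RefSeq table (GRCm38.p6) for 69 of the 78 members, and the 250 bases before each start were searched on both strands for 3 short words bound by general promoter factors. The core word of nuclear respiratory factor 1 (NRF1), GCGCANGCG, stood in 18.8% of the 69 members, against 5.86% of all genes in the table. The ETS word CCGGAAGT, bound by the GABP proteins, stood in 14.5% of the members and 3.23% of all genes, and the CCAAT box stood in 36.2% of the members and 37.5% of all genes. No member held both the NRF1 and the ETS word. The word shares over all genes include genes that were not tested here, unlike the head-to-head share. A word match is a description of the letters and shows no binding.

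The following windows (GRCm38.p6) are the 120 bases before the RefSeq start of a member, on its own strand, and hold no annotated exon. Capitals mark the word that was found, on either strand. Mrpl45 and Mrps22 were chosen for their words, Mrps12 for its head-to-head neighbour, the gene of a mitochondrial tRNA synthetase, and Mrps36 and Mrpl34 because they differed most between the tissues.
Mrpl45, chr11:97315596-97315715, plus strand, NRF1 word: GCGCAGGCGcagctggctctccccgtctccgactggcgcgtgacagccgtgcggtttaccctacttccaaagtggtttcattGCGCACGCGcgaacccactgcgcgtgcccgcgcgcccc
Mrps22, chr9:98601680-98601799, minus strand, ETS word: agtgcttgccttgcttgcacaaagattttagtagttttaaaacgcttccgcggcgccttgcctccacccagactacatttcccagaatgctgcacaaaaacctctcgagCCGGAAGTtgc
Mrps12, chr7:28741822-28741941, minus strand, CCAAT box: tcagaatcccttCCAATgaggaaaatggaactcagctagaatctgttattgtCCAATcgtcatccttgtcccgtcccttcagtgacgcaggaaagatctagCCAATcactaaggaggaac
Mrps36, chr13:100744660-100744779, minus strand, CCAAT box: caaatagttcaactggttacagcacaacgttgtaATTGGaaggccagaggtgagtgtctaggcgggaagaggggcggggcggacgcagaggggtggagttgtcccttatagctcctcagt
Mrpl34, chr8:71464806-71464925, plus strand, no word found: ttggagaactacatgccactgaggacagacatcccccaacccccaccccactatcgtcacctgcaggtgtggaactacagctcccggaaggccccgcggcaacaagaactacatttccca

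The first question was how the members differed between brown and white adipose tissue. Messages of the mitochondrial ribosome were higher in iBAT than in both white tissues almost throughout the family. In iBAT the 78 members summed to 6502 ± 359 CPM (SD, n = 6). The white tissues reached 2442 ± 399 CPM (iWAT; SD, n = 6) and 2341 ± 216 CPM (eWAT; SD, n = 6). The lowest iBAT library had 6015 CPM and the highest white library 2985 CPM, so the tissues did not overlap. The iBAT mean was 2.66-fold that of iWAT and 2.78-fold that of eWAT.

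**Figure D1:**
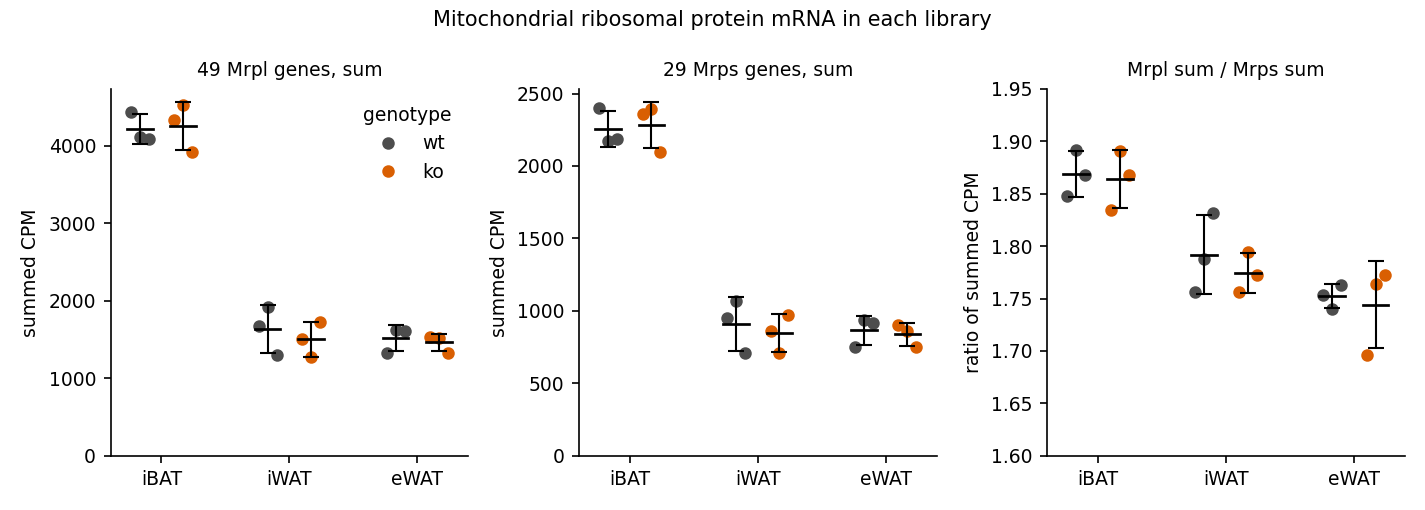
Summed CPM of the 49 Mrpl and the 29 Mrps genes, and the ratio of both sums (axis from 1.6), in each of the 18 libraries, by tissue and genotype, with mean and SD of 3 libraries. All iBAT libraries lie above all iWAT and eWAT libraries in each panel.

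Against iWAT, 76 of the 78 members were higher in iBAT and 0 were lower (edgeR quasi-likelihood test, Benjamini-Hochberg adjusted p under 0.05), where 24.0% of all tested genes were higher and 30.3% lower. The median log2 difference over the members was 1.28, against −0.14 over all genes tested. Against eWAT, 76 members were higher and 0 lower, where 24.4% of all tested genes were higher and 30.2% lower, and the median log2 difference was 1.4, against −0.17 over all genes. The difference was more than 2-fold in 61 members called against iWAT and 60 called against eWAT. More than 4-fold differences were seen in 5 and 10 members. The share of all genes above these fold cuts was not counted. Over all tested genes the upper quartile of the log2 difference was 0.42 against iWAT and 0.43 against eWAT, below 2-fold. The lower quartile of the members was 1.07 and 1.05. The 6 iBAT libraries all lay above the 6 iWAT libraries for 75 members, where 17.7% of all genes did so, and above the 6 eWAT libraries for 76 members, where 18.8% of all genes did so. Without the 4 libraries with markers of another tissue, 76 members were again higher in each comparison, where 20.7% and 25.7% of all genes were, with medians of 1.10 and 1.36, against −0.12 and −0.16 over all genes.

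How large these differences were depended on the scale. The TMM factors, which set the CPM scale by the bulk of genes, were 0.617 to 0.744 in iBAT and 1.06 to 1.44 in the white libraries. With library totals as the only scale, the median of all genes shifted to −0.95 against iWAT and −1.04 against eWAT, the members had medians of 0.48 and 0.54, and 60 members were higher and 2 lower against iWAT, 54 higher and 6 lower against eWAT. On that scale 7.68% and 8.43% of all genes were higher, and 68.4% and 70.3% lower. Relative to the median of all genes, the member median was 1.42 with TMM and 1.44 with library totals against iWAT, and 1.57 and 1.58 against eWAT. As a plain share of all counts, with no factors, the members took 1.54-fold more in iBAT than in iWAT and 1.53-fold more than in eWAT. As a share of counts from nuclear genes, iBAT had 1.92-fold and 1.96-fold more.

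**Figure D2:**
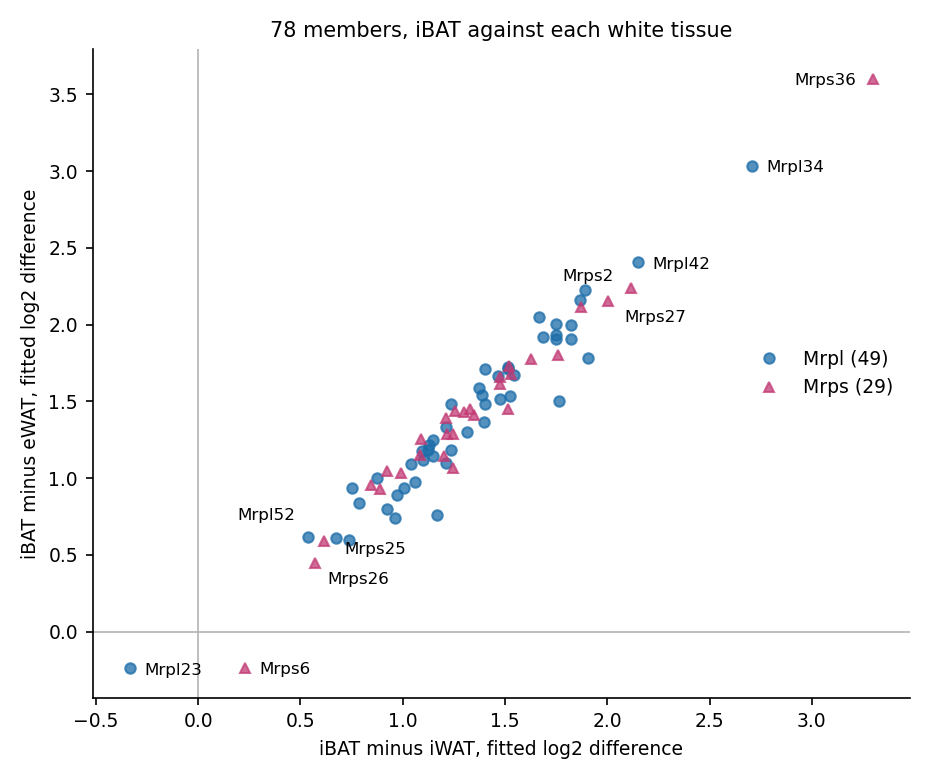
Fitted log2 differences of the 78 members, iBAT minus iWAT on the horizontal and iBAT minus eWAT on the vertical axis, with Mrpl as circles and Mrps as triangles. Both axes use the same iBAT libraries. Mrps36 and Mrpl34 lie at the top right, and Mrpl23 and Mrps6 lie apart from the rest near 0.

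Large and small subunit genes were compared next. Against iWAT, 48 of 49 Mrpl and 28 of 29 Mrps genes were higher in iBAT, with median log2 differences of 1.32 and 1.26. Against eWAT the same counts were found, with medians of 1.37 and 1.41. Taken within each mouse, the Mrpl median minus the Mrps median was 0.0076 ± 0.023 (SD, n = 6 mice) for iBAT against iWAT and above 0 in 4 of 6 mice. For iBAT against eWAT it was 0.0050 ± 0.072 (SD, n = 6 mice) and above 0 in 3 of 6. These means were smaller than their spread between mice. The fitted Mrpl minus Mrps difference was 0.06 against iWAT, which lay above the range of the per-mouse differences (−0.02 to 0.04), and −0.04 against eWAT. The symbols do not follow the structure of the ribosome everywhere: the proteins of Mrps18a and Mrps30 sit in the large subunit, and that of Mrps36 is best known as a part of the 2-oxoglutarate dehydrogenase complex. Grouped by structure, with 51 large and 26 small subunit genes, the fitted large minus small difference was 0.06 against iWAT and −0.03 against eWAT.

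The ratio of the summed counts was higher in iBAT than in both white tissues. The fitted Mrpl minus Mrps median had the same direction against iWAT (0.06) and the opposite one against eWAT (−0.04). Summed Mrpl over summed Mrps CPM was 1.87 ± 0.023 (SD, n = 6) for iBAT. It was 1.78 ± 0.029 (SD, n = 6) for iWAT and 1.75 ± 0.028 (SD, n = 6) for eWAT. The iBAT libraries ranged from 1.83 to 1.89, all above those of eWAT (1.70 to 1.77), and the lowest iBAT value of 1.835 was next to the highest iWAT value of 1.832. This sum is weighted to the most abundant members, whereas the median counts each member once.

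Several members stood far above the family median. Mrps36 (ENSMUSG00000061474.11, chr13:100735955-100744659, minus strand, 4 exons) had 155 to 214 CPM in iBAT (median 198), 13.7 to 29.1 CPM in iWAT (median 19.0) and 12.0 to 18.5 CPM in eWAT (median 16.8). Every iBAT library was more than 5 times every white library. The log2 difference was 3.30 ± 0.18 (SE) against iWAT and 3.60 ± 0.18 (SE) against eWAT, with adjusted p of 7.16e-10 and 2.16e-10 (edgeR). Pseudogenes of Mrps36 share part of its sequence, and each had at most 0.13 CPM in any library.

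Mrpl34 (ENSMUSG00000034880.7, chr8:71464959-71465747, plus strand, 2 exons), which encodes a small protein of the large subunit with a bacterial counterpart, had 172 to 220 CPM in iBAT (median 199), 23.2 to 45.7 CPM in iWAT (median 26.2) and 17.9 to 28.0 CPM in eWAT (median 24.7). Its log2 difference was 2.71 ± 0.17 (SE) and 3.04 ± 0.17 (SE). Mrpl42 followed with 2.15 ± 0.13 and 2.41 ± 0.14 (SE), and then Mrps2 with 2.11 ± 0.15 and 2.24 ± 0.15 (SE). Mrps27, whose protein carries pentatricopeptide repeats, had 2.0 ± 0.13 and 2.15 ± 0.13 (SE). In these 5 members no iBAT library overlapped a white library. Mrpl16, Mrpl39, Mrpl15, Mrpl12 and Mrps35 were also more than 4-fold higher than in eWAT, with 2.22, 2.16, 2.01, 2.05 and 2.12. Of these only Mrpl12 falls under the rule for named genes, and the other 4 were named after their values were seen.

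The smallest differences among called members were found in Mrps26, Mrpl52 and Mrps25. Mrps26 had 47.9 to 57.3 CPM in iBAT, 30.0 to 41.2 CPM in iWAT and 33.3 to 41.5 CPM in eWAT, a log2 difference of 0.57 ± 0.09 and 0.44 ± 0.09 (SE). Mrpl52 had 0.54 ± 0.11 and 0.62 ± 0.11 (SE), and Mrps25 had 0.61 ± 0.08 and 0.59 ± 0.08 (SE). In wt libraries only, Mrpl52 was not called against iWAT (0.38, adjusted p of 0.098, edgeR). With library totals as the scale, these 3 turned to negative values in both comparisons, and those of Mrps26 (−0.43) and Mrps25 (−0.27) against eWAT passed the test with adjusted p of 0.0014 and 0.0069 (edgeR). Of the 50-base stretches in Mrps25 transcripts, 73.9% also occur in the overlapping gene Nr2c2, so how reads were divided between them is uncertain.

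**Figure D3:**
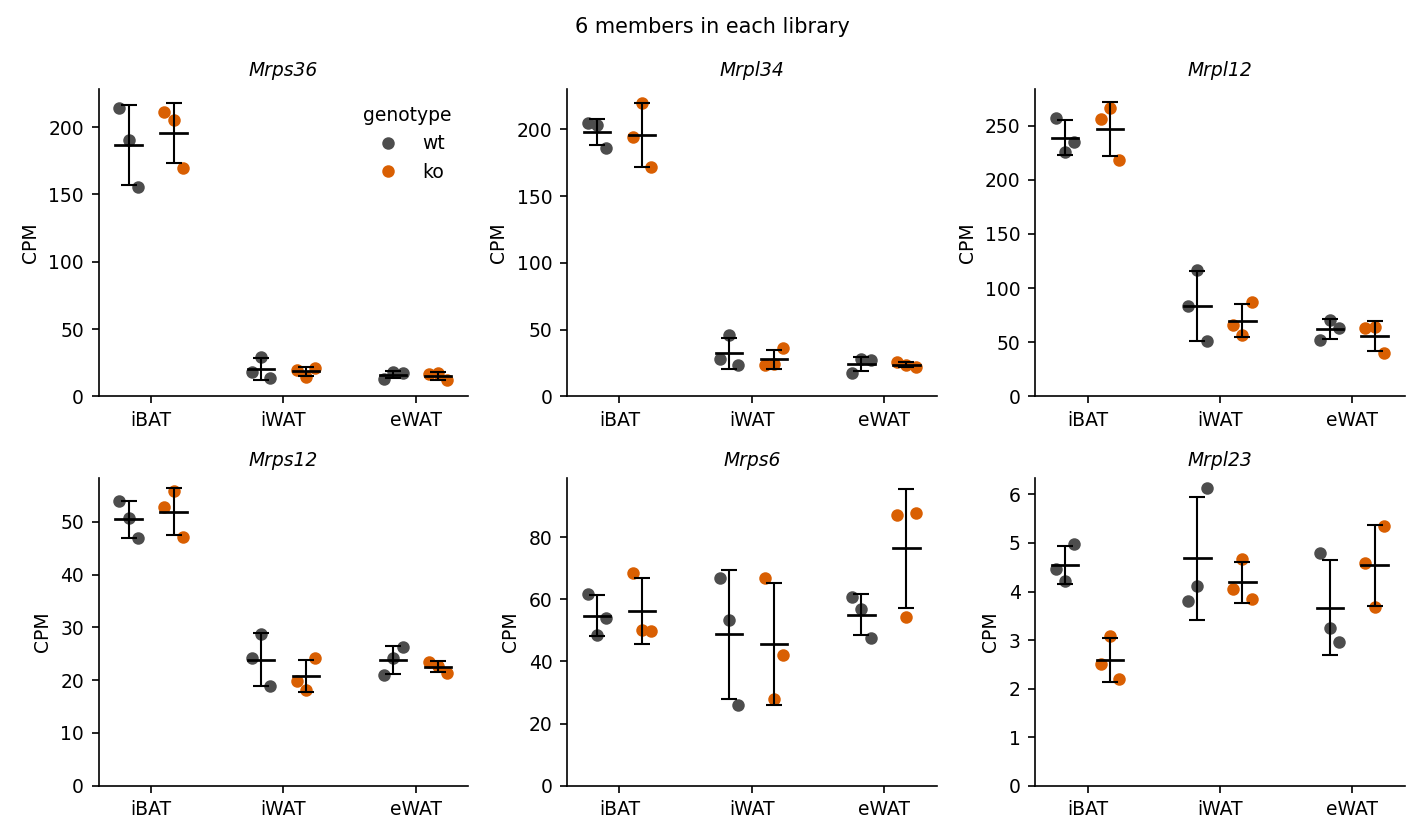
CPM of 6 members in each of the 18 libraries, by tissue and genotype, with mean and SD of 3 libraries. Mrps36, Mrpl34, Mrpl12 and Mrps12 were higher in every iBAT library than in every white library, whereas Mrps6 and Mrpl23 overlapped between tissues.

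Of the 78 members, Mrps6 and Mrpl23 did not pass the test against either white tissue. Mrps6 (ENSMUSG00000039680.10, chr16:92058270-92112227, plus strand, 3 exons) had 48.5 to 68.4 CPM in iBAT (median 52.1), 26.1 to 67.0 CPM in iWAT (median 47.7) and 47.7 to 87.8 CPM in eWAT (median 58.8). The white libraries of both tissues overlapped the iBAT range. The log2 differences were 0.23 ± 0.23 (SE) and −0.24 ± 0.23 (SE), with adjusted p of 0.418 and 0.401 (edgeR). On the scale of library totals they were −0.54 and −1.12, with adjusted p of 0.024 and 0.00013 (edgeR). With totals of nuclear genes they were −0.23 and −0.77, with adjusted p of 0.347 and 0.0041 (edgeR), so that Mrps6 was called lower in iBAT than in eWAT. Of the 50-base stretches of Mrps6 transcripts, 32.2% also occur in Gm49711, which overlaps it.

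Mrpl23 (ENSMUSG00000037772.13, chr7:142532686-142540747, plus strand, 5 exons) was the member with the lowest counts, 32 in the lowest library. It had 2.19 to 4.98 CPM in iBAT, 3.799 to 6.13 CPM in iWAT and 2.96 to 5.35 CPM in eWAT, with log2 differences of −0.33 ± 0.22 and −0.24 ± 0.22 (SE) and adjusted p of 0.216 and 0.382 (edgeR). On the scale of library totals Mrpl23 was called lower in iBAT, at −1.17 and −1.13 (adjusted p of 0.00098 and 0.0013, edgeR), and with totals of nuclear genes at −0.84 and −0.77 (adjusted p of 0.0098 and 0.016, edgeR). In wt libraries only, the difference of Mrpl23 against eWAT was 0.31 (adjusted p of 0.438, edgeR). Its processed pseudogene Mrpl23-ps1 had 37.8 ± 2.99 CPM in iBAT, against 20.2 ± 1.84 CPM (iWAT) and 20.2 ± 2.95 CPM (eWAT) in white fat (SD, n = 6 each). Of the 50-base stretches of the pseudogene, 92.5% also occur in Mrpl23 transcripts, so that how reads were divided between the loci is uncertain. The sum of both was 41.3 ± 3.12 CPM in iBAT, against 24.7 ± 1.88 CPM (iWAT) and 24.3 ± 2.09 CPM (eWAT) in white fat (SD, n = 6 each). The lowest sum in iBAT was 37.6 CPM and the highest in a white library 27.02 CPM.

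Members with other known roles are given next. Mrpl12, which has also been linked to the mitochondrial RNA polymerase, had 219 to 266 CPM in iBAT (median 245), 51.2 to 116 CPM in iWAT (median 74.8) and 39.7 to 70.9 CPM in eWAT (median 63.0). Its log2 difference was 1.67 ± 0.18 and 2.05 ± 0.18 (SE). Mrpl44 (1.24 and 1.19) carries a ribonuclease-like fold, and Mrpl58 (1.15 and 1.25) is a peptidyl-tRNA hydrolase built into the large subunit. Mrps12, the counterpart of the bacterial protein in which streptomycin resistance arises, had 46.9 to 55.8 CPM in iBAT, 18.2 to 28.8 CPM in iWAT and 21.02 to 26.3 CPM in eWAT. Its log2 difference was 1.20 ± 0.11 and 1.15 ± 0.11 (SE), and that of Sars2, the synthetase gene that starts 172 bases away on the other strand, was 1.13 and 1.29.

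The family holds 3 paralogues of Mrps18. Mrps18b had log2 differences of 1.52 ± 0.11 and 1.45 ± 0.11 (SE), Mrps18a 1.33 ± 0.12 and 1.45 ± 0.12 (SE), and Mrps18c 0.89 ± 0.11 and 0.93 ± 0.11 (SE). All 3 were called in both comparisons, and the difference among them was not tested. Of the 50-base stretches of Mrps18b transcripts, 56% also occur in other genes, mostly Gm16279. Mrps30 had 0.92 ± 0.14 and 1.04 ± 0.14 (SE). On the scale of library totals neither Mrps18c nor Mrps30 was called: Mrps18c had 0.09 and 0.07, with adjusted p of 0.334 and 0.483 (edgeR), and Mrps30 had 0.13 and 0.19, with adjusted p of 0.283 and 0.121 (edgeR). Mrpl45 and Mrps22, whose promoter windows are shown above, had 1.32 and 1.3, and 1.21 and 1.39. The median log2 difference against iWAT was 1.4 over the 13 members with the NRF1 word and 1.23 over the 56 without, 1.21 over the 10 with the ETS word and 1.26 over the 59 without, and 1.33 over the 25 with the CCAAT box and 1.24 over the 44 without. Against eWAT these medians were 1.45 and 1.33 for the NRF1 word, 1.28 and 1.37 for the ETS word, and 1.41 and 1.3 for the CCAAT box.

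The 19 head-to-head neighbours did not all follow the members. Of them 8 were higher and 1 lower in iBAT than in iWAT, where 24.0% of all tested genes were higher and 30.3% lower. Against eWAT 9 were higher and 0 lower, where 24.4% of all tested genes were higher and 30.2% lower. The largest were Ndufs6, a respiratory chain subunit beside Mrpl36 (2.56 and 2.75), Apba3 beside Mrpl54 (1.66 and 2.0) and Ptcd2, a mitochondrial RNA-binding protein beside Mrps27 (1.54 and 1.86). Lower was Mitd1 beside Mrpl30 (−0.47 against iWAT), while Mrpl30 itself had 1.82 and 2.0.

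Divided by transcript length, the level of single members varied more than 10-fold within every tissue. The median over Mrpl genes was 76.2, 31.2 and 26.9 CPM per kb in iBAT, iWAT and eWAT, and over Mrps genes 60.0, 25.6 and 24.8 CPM per kb. Highest over all libraries among Mrpl genes were Mrpl34, Mrpl30 and Mrpl42, with 324, 292 and 277 CPM per kb in iBAT. Among Mrps genes they were Mrps36, Mrps21 and Mrps23, with 300, 289 and 160 CPM per kb in iBAT. In eWAT the order differed: Mrpl34 had 39.5 and Mrps36 24.8 CPM per kb there, and the highest Mrpl gene was Mrpl20 with 99.3 CPM per kb, named after its values were seen. Lowest were Mrpl23 with 5.16, Mrpl19 with 8.51 and Mrpl1 with 10.2 CPM per kb in iBAT, and Mrps26 with 12.2, Mrps25 with 12.4 and Mrps30 with 18.2 CPM per kb. Of the 50-base stretches of Mrpl19 transcripts, 40.3% also occur in other genes, mostly the overlapping Gcfc2.

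The second question was whether both white tissues differed from each other. With all libraries, 0 of the 78 members were called between iWAT and eWAT (edgeR, Benjamini-Hochberg), where 10.2% of all tested genes were (5.70% higher and 4.50% lower in iWAT), and 0 were called by DESeq2. At an unadjusted p under 0.05 there were 8 members by edgeR, where 25.5% of all genes passed, and 14 by DESeq2, where 4886 of the 18728 genes passed. The median log2 difference of iWAT over eWAT was 0.09, with 57 members above 0 and 21 below, where 48.7% of all genes were below 0. Without the 4 libraries with markers of another tissue, 15 members were called, all higher in iWAT, 13 Mrpl and 2 Mrps, where 5.70% of the 20162 genes tested in that fit were higher and 4.55% lower, and the median was 0.23. Among them Mrpl12 changed from 0.38 to 0.61 (adjusted p from 0.178 to 0.00645), Mrpl53, named after its values were seen, from 0.31 to 0.55 and Mrpl34 from 0.33 to 0.58. Of the 50-base stretches of Mrpl53 transcripts, 100% also occur in the overlapping gene Gm42688, so how reads were divided between them is uncertain. The 15 calls rest on 3 iWAT libraries, wt 1, wt 2 and ko 3, against 5 of eWAT. Sums of brown adipocyte markers were 141, 325 and 296 CPM in these 3, against 27.7 to 134 CPM in the 3 iWAT libraries left out. The part of these markers in the result was not tested. Without iWAT wt 3 alone 2 members were called higher, where 4.73% of all genes were, and without eWAT ko 3 alone 1 was called lower, where 4.48% of all genes were.

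The iWAT libraries themselves differed widely. Their member sum was 2985 CPM in wt 2, 2689 CPM in ko 3, 2619 CPM in wt 1, 2371 CPM in ko 1, 2009 CPM in wt 3 and 1977 CPM in ko 2. The brown adipocyte markers were highest in wt 2 and ko 3 (325 and 296 CPM), the libraries with the highest member sums, and were 141, 117, 27.7 and 134 CPM in wt 1, ko 1, wt 3 and ko 2. The lowest member sums were in wt 3 and ko 2, the libraries with lymph node markers. Common adipocyte markers summed to 43505, 39172, 37659 and 32297 CPM in wt 2, ko 3, wt 1 and ko 1, and to 18117 and 22231 CPM in wt 3 and ko 2. Macrophage markers summed to 1460 and 1370 CPM in wt 3 and ko 2, and to 241 to 554 CPM in the other 4. The part of any of these in the member levels was not tested.

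The third question was whether loss of Gm15551 changed the members. No member was called in ko against wt across tissues, within iBAT, within iWAT or within eWAT, and none for the interaction of genotype with tissue, by edgeR with Benjamini-Hochberg adjustment or by DESeq2. Of all tested genes, 0.00534% were called across tissues, 0.00% in iBAT, 0.00% in iWAT and 0.00534% in eWAT. At an unadjusted p under 0.05 edgeR gave 0 members across tissues, 1 in iBAT, 1 in iWAT, 0 in eWAT and 1 for the interaction, where 2.19%, 1.27%, 2.22%, 4.35% and 1.41% of all genes passed. The median SE of a member was 0.09 on the log2 scale across tissues and 0.17 within a tissue. The value within a tissue limits the changes that could be seen. Across tissues the libraries of a mouse were counted as independent, so that SE does not measure the spread between mice.

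**Figure D4:**
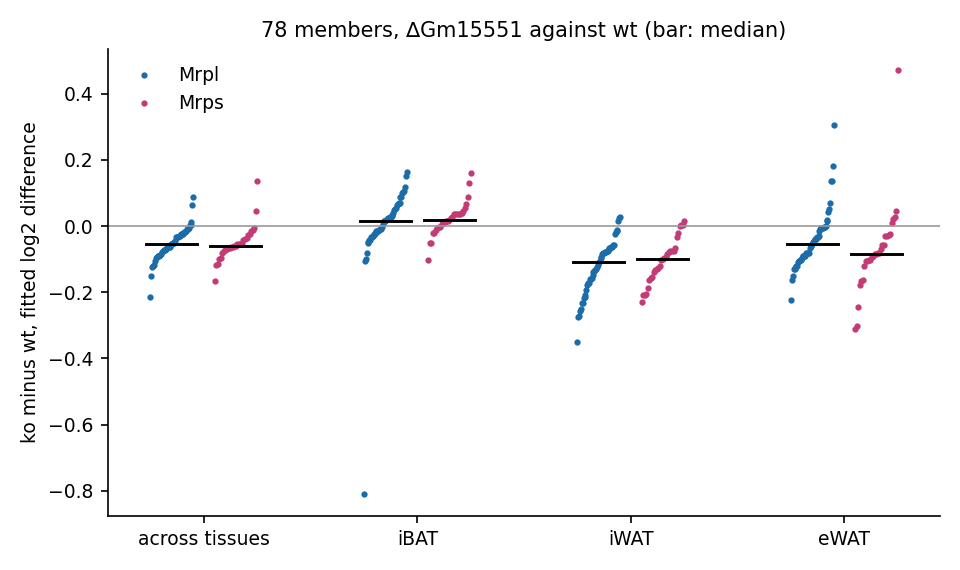
Fitted log2 differences of ko minus wt for the 49 Mrpl and 29 Mrps genes, across tissues and within each tissue, sorted within each column, with the median as a bar. The lowest point in iBAT is Mrpl23 at −0.81, and the highest in eWAT is Mrps6 at 0.47.

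Across tissues, 71 of 78 members had a ko mean below wt, where 48.7% of all genes did, with a median log2 difference of −0.05. Within iBAT 30 members were below 0 (49.9% of all genes) with a median of 0.02, within iWAT 71 (52.5% of all genes) with a median of −0.10, and within eWAT 63 (48.9% of all genes) with a median of −0.07. All 4 libraries with markers of another tissue are in the white tissues and 3 of them are ko. Without these 4 libraries, 42 members were below 0 across tissues (median −0.0017), 55 in iWAT (median −0.08) and 35 in eWAT (median 0.01). This left 1 ko against 2 wt libraries in iWAT and 2 ko against 3 wt libraries in eWAT, so that the lone iWAT ko library was assumed to vary like the other groups. With counts summed per mouse, 74 members were below 0 across tissues (median −0.10). Single libraries moved the values both ways. Across tissues, 48 members were below 0 without iWAT wt 2 (median −0.01) and 74 without iWAT wt 3 (median −0.09). In iWAT the count was 37 without wt 2 (median 0.003) and 35 without ko 2 (median 0.0063), but 77 without wt 3 (median −0.25) and 75 without ko 3 (median −0.23). In eWAT it was 35 without ko 3 (median 0.0085), 46 without wt 2 and 50 without wt 3 (medians −0.02 and −0.03), but 72 without wt 1 (median −0.16), and the medians without ko 1 and ko 2 were −0.12 and −0.11. In iBAT it was 50 without ko 2 (median −0.02) and 11 without ko 3 (median 0.06). Not every library left out is listed here. Over all genes the medians of the fits listed lay between −0.033 (in iWAT without ko 3) and 0.020 (in iWAT without wt 3). The share of all genes below 0 was not counted for them. Members share libraries, so the counts of members below 0 are no replicates of the genotype.

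Mrpl23 had the smallest p in iBAT. Its wt libraries had 4.46, 4.21 and 4.98 CPM and its ko libraries 2.51, 3.08 and 2.19 CPM, without overlap. The log2 difference was −0.81 ± 0.27 (SE), with an adjusted p of 1.0 (edgeR). In iWAT it was −0.16 and in eWAT 0.31. It was the 1 member under 0.05 for the interaction before adjustment, and its adjusted p there was 1.0 (edgeR). Mrpl23-ps1, which shares its sequence, had 37.8, 33.6 and 39.4 CPM in the wt and 35.1, 41.7 and 39.1 CPM in the ko libraries of iBAT, with overlap.

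Mrpl54 had the smallest p in iWAT, with 21.3 to 25.8 CPM in wt and 16.5 to 20.6 CPM in ko libraries, a log2 difference of −0.35 ± 0.16 (SE), with an adjusted p of 1.0 (edgeR). Mrpl22 had a log2 difference of −0.25 in iWAT and −0.15 across tissues. Mrps10 and Mrps24 had the smallest p in eWAT, at −0.31 and −0.30, and Mrps15 had −0.17 across tissues. Mrpl1 had 0.16 in iBAT, and Mrpl43, with the second smallest p of the interaction, had −0.01 in iBAT, −0.21 in iWAT and 0.14 in eWAT. Genotypes did not overlap for 2 members in iBAT (Mrpl22 and Mrpl23), 2 in iWAT (Mrpl54 and Mrpl24) and 0 in eWAT, where 4.94%, 4.92% and 5.25% of all genes did not overlap. Mrpl24 was named after its values were seen.

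The members were then set beside the rest of the apparatus for mitochondrial gene expression. The same shares over all tested genes apply to every list below. Against iWAT 24.0% were higher in iBAT and 30.3% lower, and against eWAT 24.4% were higher and 30.2% lower. The 5 mitochondrial ribosomal proteins with other symbols were all higher in iBAT than in both white tissues: Ptcd3 (log2 difference 1.59 and 1.81), Chchd1 (1.38 and 1.63), Gadd45gip1 (1.12 and 1.28), Aurkaip1 (1.12 and 1.24) and Dap3 (0.95 and 1.08). Of 25 factors that assemble or modify the mitochondrial ribosome, 22 were higher and 0 lower in each comparison, with medians of 0.71 and 0.89. Highest were the rRNA methyltransferases Mrm1 (1.4 and 1.51) and Mrm3 (1.52 and 1.37) and the maturation factor Rbfa (1.45 and 1.28). Ybey, an endoribonuclease, was not called in either (0.31 and 0.34). Also not called were Mterf4 (0.04) and Rpusd4 (0.13) against iWAT, and Ddx28 (0.06) and Trub2 (−0.29) against eWAT.

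Factors that act on the ribosome during translation were also higher. Of 15 translation factors 14 were higher and 0 lower in both comparisons, with medians of 1.31 and 1.44. The elongation factors Tufm (2.18 and 2.48) and Gfm1 (2.07 and 2.37) and the translational activator Taco1 (2.23 and 2.47) led, while Mtfmt, which formylates the initiator tRNA, was not called (0.01 and 0.15). Of 17 mitochondrial aminoacyl-tRNA synthetases 15 were higher and 0 lower, with medians of 1.09 and 1.17, led by Lars2 (1.83 and 2.24) and Aars2 (1.88 and 2.16). Of 9 genes of mitochondrial transcription and replication 7 were higher and 0 lower, with medians of 1.02 and 1.19. Tfb2m had 1.80 and 2.0 and Tfam 1.02 and 1.21, and Polg2 and Mterf1a were not called. All 18 genes of import, chaperones and matrix or outer membrane markers were higher, with medians of 1.53 and 1.49.

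**Figure D5:**
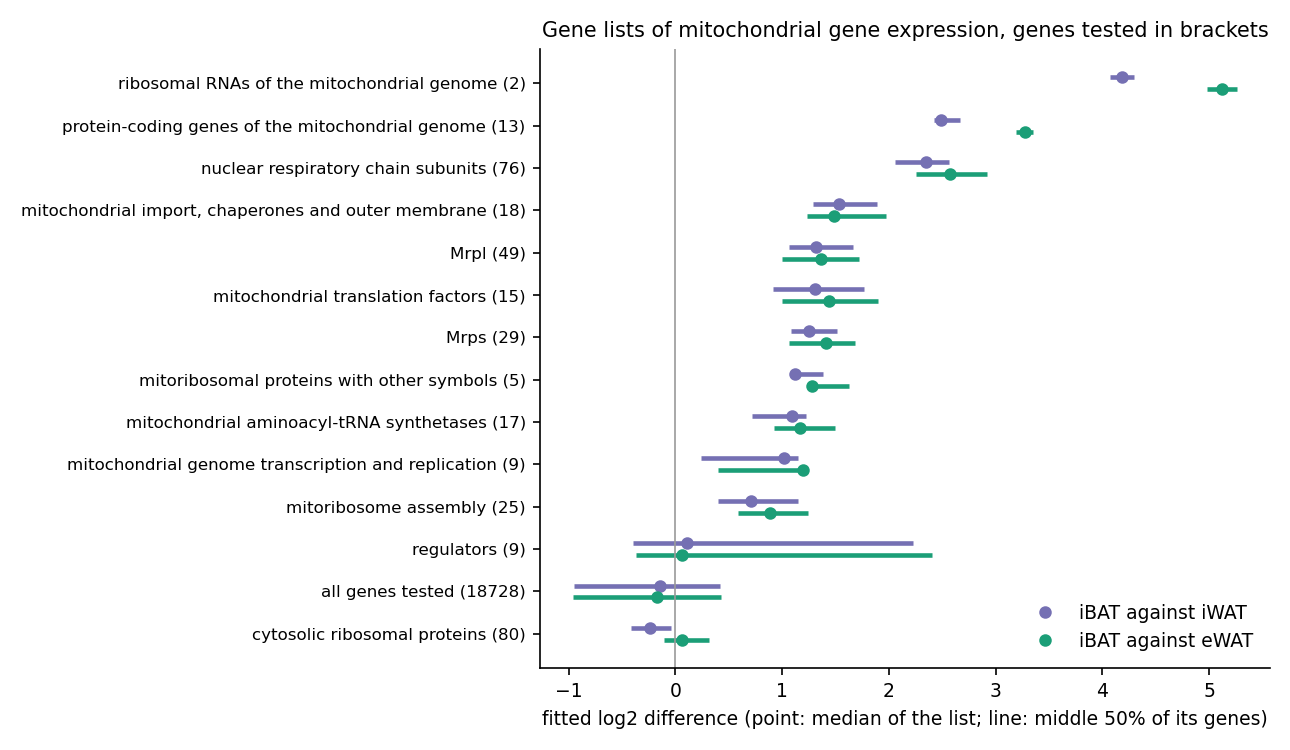
Median (point) and middle 50% of genes (line) of the fitted log2 difference of iBAT over iWAT and over eWAT for each gene list, with the number of genes tested. Mrpl and Mrps genes lie near translation factors and import, below respiratory chain subunits and mitochondrial transcripts, and above all genes tested and cytosolic ribosomal proteins.

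The respiratory chain, whose mitochondrial subunits this ribosome makes, had larger median differences than the members. Of 76 nuclear respiratory chain and ATP synthase subunits 74 were higher and 1 lower in each comparison, with medians of 2.35 and 2.57. Atp5g1 was lower (−2.24 and −2.79), and Atp5g3 was not called (−0.03 and 0.01). All 13 messages of the mitochondrial genome were higher, with medians of 2.48 and 3.28, and so were both mitochondrial ribosomal RNAs, mt-Rnr1 (4.40 and 5.40) and mt-Rnr2 (3.96 and 4.84). The libraries were made from polyadenylated RNA, so rRNA values cover what that selection kept. The member sum was 9.97 ± 0.15% of the sum of nuclear respiratory chain subunits in iBAT (SD, n = 6), 20.02 ± 2.93% in iWAT (SD, n = 6) and 22.8 ± 2.22% in eWAT (SD, n = 6). The iBAT libraries ranged from 9.69 to 10.1% and the lowest white library had 17.01%.

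Proteins of the cytosolic ribosome did not share the pattern. Of the 80 tested, 5 were higher and 15 lower in iBAT than in iWAT, where 24.0% of all tested genes were higher and 30.3% lower. Against eWAT 13 were higher and 2 lower, where 24.4% of all tested genes were higher and 30.2% lower. The median was −0.23 against iWAT and 0.06 against eWAT. These genes summed to 16618 ± 2128 CPM in iBAT, and to 18628 ± 6588 CPM (iWAT) and 15245 ± 1097 CPM (eWAT) in the white tissues (SD, n = 6 each). The highest iWAT library, at 31414 CPM, was wt 3, the one with the highest lymph node markers.

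Known regulators of mitochondrial genes went in both directions, where 24.0% and 24.4% of all tested genes were higher and 30.3% and 30.2% lower. Of 9 tested, 4 were higher in iBAT in each comparison: the coactivators Ppargc1b (3.76 and 4.07) and Ppargc1a (3.34 and 3.91), the nuclear receptor Esrra (2.22 and 2.4) and Gabpa (1.10 and 1.31), which binds the ETS word. Lower were Gabpb1 (−0.40 and −0.37), Pprc1 (−0.72 and −0.55) and Myc (−1.38 and −1.09) in both comparisons and Nrf1 (−0.31) against iWAT. Nrf1 had −0.18 against eWAT and Yy1 had 0.11 and 0.07, and these did not pass the test.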

How the data were processed

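Per the methods, the authors filtered reads for quality with cutadapt and mapped them to GENCODE mouse transcripts with Salmon. They deposited unnormalised estimated counts per gene as whole numbers. The transcripts were GENCODE M22, alone or joined with RNAcentral: which of these, the strand setting, versions and gene summary are not given in the sources used here. These expected counts were filtered with filterByExpr, scaled by TMM and tested with edgeR 4.0.16 (R 4.3.3) quasi-likelihood tests, with Benjamini-Hochberg adjustment over 18728 genes at 0.05. Tissue contrasts used tissue and genotype as terms. Genotype within a tissue and its interaction used a ko term per tissue. CPM refer to TMM-scaled totals. Marker sums more than 5 times the median of the tissue and over 100 CPM defined the 4 libraries with markers of another tissue. Gene positions here are from another release, GENCODE M21 (GRCm38). The edgeR fits were checked on simulated counts with known fold changes. In these counts few genes changed and each library was drawn on its own. The check therefore covers neither the question of scale nor libraries that share a mouse.

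Members were named by rule: 9 with a role of their own, the 5 largest and 5 smallest brown to white differences, the 3 highest and 3 lowest levels per kb in each subunit, and the 2 smallest p in each genotype contrast. Further parts (called between the white tissues, called lower or in opposite directions, failing the filter) found none. From other lists, all regulators and proteins with other symbols, and up to 3 genes at each end, were eligible. Members and lists were chosen with earlier results of these data known. Same-numbered tissues carry the same mouse identifier in the labels, and their deviations correlated at −0.17 to 0.33.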

Additional observations from a re-analysis of the deposited data

Results flagged for a closer look

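In 99 comparisons of a library with the other 5 of its tissue (29 named members, their sums and the subunit ratio), 4 libraries stood apart by Dixon's test, and about 4.95 would do so by chance. Mrpl1 was high in eWAT ko 3 at 20.8 CPM, where the next library had 15.8 CPM. That library has epididymis and testis markers. Mrpl23 was high in iWAT wt 3 at 6.13 CPM, next to 4.66 CPM, and that library has lymph node markers. Mrpl58 was high in eWAT wt 3 at 29.3 CPM, next to 24.8 CPM. Mrps21 was low in eWAT wt 1 at 27.7 CPM, next to 36.4 CPM.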

How the results depend on the processing

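The alternatives were DESeq2 or upper quartile factors, counts without the mitochondrial genome, other filters, the DESeq2 test, a replicate block, counts summed per mouse, wt libraries only, leaving out the 4 libraries with markers of another tissue, each library left out, another subunit assignment, and, added after the data were seen, library or nuclear totals without TMM. Between iBAT and each white tissue, leaving out any 1 library kept 76 members called, and medians stayed within 1.22 to 1.36 (iWAT) and 1.37 to 1.43 (eWAT). In those fits 21.2 to 24.5% (iWAT) and 21.9 to 24.6% (eWAT) of all genes were higher. With library totals the medians were 0.48 and 0.54, and with nuclear totals 0.80 and 0.89. Between iWAT and eWAT, 0 members were called, 3 with library and 3 with nuclear totals (1 higher and 2 lower in each, where 5.01 and 6.42% and 5.44 and 5.58% of all genes were), 15 without the 4 libraries with markers of another tissue, and 0 to 2 on leaving out 1 library, with medians of 0.04 to 0.14. The Mrpl minus Mrps median against iWAT was 0.0097 in wt libraries only and 0.0265 to 0.0763 on leaving out 1 library. It was −0.07 to 0.01 against eWAT and −0.07 to 0.03 between the white tissues. Genotype gave 0 called members under every alternative run. With library totals 8 members were below 0 against iWAT and 11 against eWAT, where TMM gave 1 and 2. Among the members named by rule, direction turned for Mrpl23 against eWAT in wt libraries only (0.31), and with library totals for Mrpl52 (−0.28 and −0.26), Mrps25 (−0.19 and −0.27), Mrps26 (−0.23 and −0.43) and Mrps6 against iWAT (−0.54). With nuclear totals it turned for Mrps26 against eWAT (−0.073) and Mrps6 against iWAT (−0.23). In wt libraries only, 75 members were called in each comparison with iBAT, all higher, where 17.9 and 19.4% of all genes were. Over all genes, DESeq2 called 4 by genotype across tissues and 12, 2 and 14 in iBAT, iWAT and eWAT, where edgeR called 1, 0, 0 and 1. The causes were not tested.

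Upper quartile factors moved the median of all genes to −0.24 and −0.27. With the mouse as replicate block, 76 members were called higher in iBAT in each comparison, where 25.1% and 25.3% of all genes were. Between iWAT and eWAT 0 members were called, where 4.65% of all genes were higher and 4.60% lower. With the replicate number within each tissue as replicate block, 0 members were called by genotype. Replicate numbers do not pair wt with ko mice (correlations of deviations −0.47 to 0.55). Low counts limit Mrpl23, and shared sequence limits the 13 members with more than 20% of 50-base stretches in other genes.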
